A study of Mus musculus with 7 samples.

Results

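Transcripts of integrins, laminins and the proteins that tie laminins into basement membranes were measured in whole mouse liver. The set was taken by gene symbol: every integrin alpha and beta subunit from Itgb1 to Itgb8, every laminin alpha, beta and gamma chain, and the nidogens Nid1 and Nid2, perlecan (Hspg2) and agrin (Agrn). It held 41 of the 37620 gene identifiers in the count table, and all 41 passed the filter on low counts. By kind they were 18 integrin alpha subunits, 8 integrin beta subunits, 11 laminin chains and 4 linking proteins.

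Integrins are receptors built from an alpha and a beta subunit that span the cell membrane and bind the matrix, or ligands on other cells, on the outside and the actin or keratin skeleton on the inside. Laminins are secreted as trimers of an alpha, a beta and a gamma chain, and form the sheet of the basement membrane that integrins grip. Nidogens, perlecan and agrin connect that sheet to type IV collagen and to the cell surface. In liver, bile ducts and larger vessels rest on a basement membrane, whereas the normal sinusoid lacks a continuous one, and leukocytes and platelets use integrins of their own to adhere to vessel walls and to other cells.

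All libraries were bulk RNA sequencing of flash-frozen liver from C57BL/6 mice, an inbred strain, that ate a Western diet for 30 weeks. Mice of the H-TBA group (4 libraries) had high total bile acids and those of the L-TBA group (3 libraries) had low total bile acids. Both groups ate the same diet, and no group on another diet was analysed here. The labels give no genotype beyond the strain and no age, bile acid concentration or statement that each library was a separate animal, and the tests therefore weigh the groups only against differences among these 7 libraries, which may be technical in part.

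Total counts lay between 9996990 and 12152613 per library. Of 15249 genes tested with the quasi-likelihood test of edgeR and Benjamini-Hochberg adjustment at 0.05, 23.9% were called, with 13.1% higher and 10.7% lower in H-TBA. The median log2 fold change (H-TBA over L-TBA, here and throughout) over all genes was 0.00. It was 0.16 when library totals replaced the TMM scaling, with 78.9% of the calls higher in place of 55.1%, and -0.08 with an offset for exon length, with 39.5% of the calls higher. H-TBA 1 lay between the groups on the first principal component, nearer to the other H-TBA libraries. Of 10 hepatocyte markers, which summed to 59707 to 69078 CPM in H-TBA and 67882 to 77569 CPM in L-TBA, 2 rose (Ass1 and Cps1) and 3 fell (Glul, Cyp2e1 and Ttr, the last not without L-TBA 1, adjusted p = 0.0605). Levels are TMM-scaled CPM (counts scaled to library size), and levels of different genes are compared per kilobase of merged exon.

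Of the 41 genes, 23 were higher and 3 lower in H-TBA, against the 13.1% and 10.7% of all tested genes called in those directions. Their median log2 fold change was 0.76 beside 0.00 over all genes. At least 2-fold higher were 16 of the 41, against 1081 of all 15249 genes tested. In 25 of 41 genes the groups did not overlap, against 33.5% of all tested genes. Of the laminin chains, 9 of 11 rose and 0 fell (median 1.24). Of the alpha subunits, 7 of 18 rose and 1 fell (median 0.24), and of the beta subunits 4 of 8 rose and 2 fell (median 0.28). Leaving out L-TBA 3 reduced the rises to 16 and the falls to 1, and leaving out H-TBA 1 gave 24 rises and 3 falls.

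**Figure D1:**
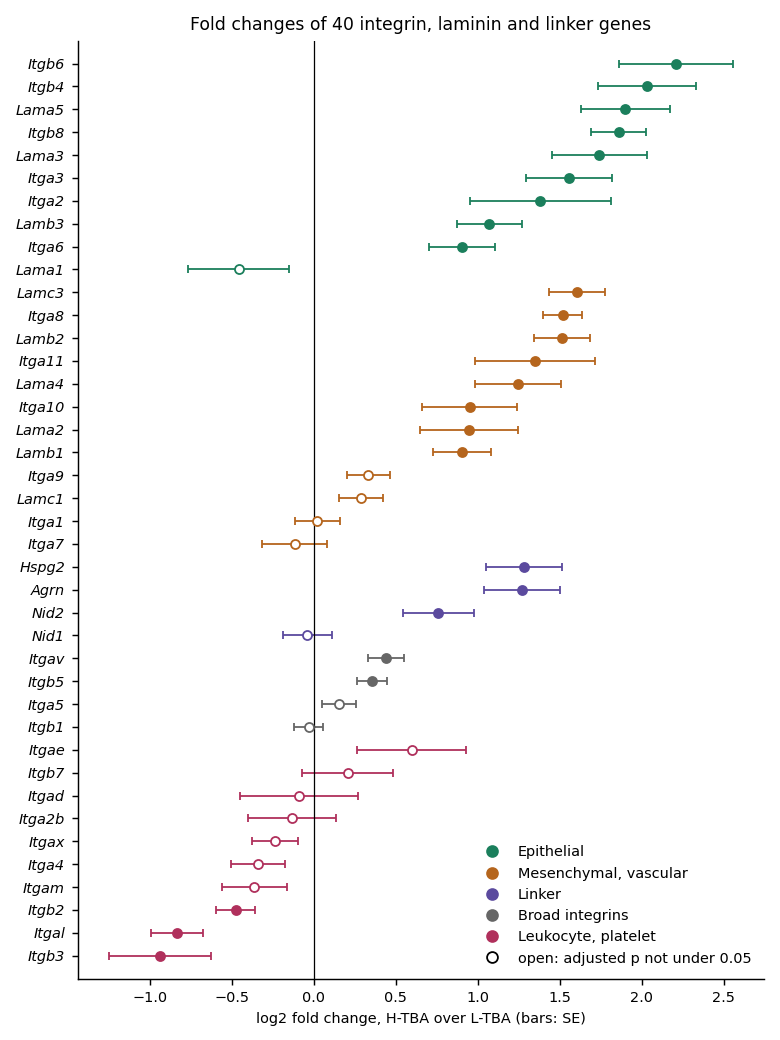
Log2 fold change of 40 of the 41 genes, H-TBA (4 libraries) over L-TBA (3 libraries), grouped by the cells or layers a gene is known from; points are edgeR estimates, open where the adjusted p was not under 0.05, and bars their SE. The epithelial genes other than Lama1 lie between 0.90 and 2.21, and the 3 genes that fell (Itgal, Itgb2, Itgb3) belong to the leukocyte and platelet group.

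The genes were also counted by the cells they are known from. These classes were set with earlier results of these data known, so their counts and medians only describe the data. Some members, such as Lama5 and Itgb3, are also known from endothelium, and Itgb8, classed as epithelial, is not confined to epithelium. Of 11 genes classed as epithelial, 10 rose and 0 fell, with a median of 1.74. Of 12 known from mesenchymal, muscle or vascular layers, 8 rose and 0 fell, with a median of 0.95. Of 10 known from leukocytes and platelets, 0 rose and 3 fell, with a median of -0.29. Of 4 integrin subunits made by most cells, 2 rose (median 0.25), and of the 4 linking proteins 3 rose (median 1.01). Summed CPM lay at 136 to 292 CPM in H-TBA and 61.7 to 77.0 CPM in L-TBA for the epithelial genes and at 248 to 324 CPM in H-TBA and 144 to 192 CPM in L-TBA for the mesenchymal and vascular genes. For the leukocyte and platelet genes it lay at 70.2 to 101.5 CPM in H-TBA and 106 to 117 CPM in L-TBA. None of these 3 sums overlapped between the groups. Each count of 0 genes in a direction given for a class or list was also 0 at an unadjusted p under 0.05 in edgeR, with DESeq2 and with limma-voom, other than the B cell markers, of which 2 were lower at the unadjusted p. With no filter on low counts, 1 T and NK cell marker and 3 B cell markers fell. A block by the replicate numbers of the labels gave 1 fall among the B cell markers. With an offset for exon length, 1 dendritic cell marker and 1 further basement membrane gene fell. Without L-TBA 3, 5 mesenchymal and vascular genes and 0 subunits of most cells rose and 1 leukocyte gene fell. Without L-TBA 2, 1 subunit of most cells rose. The difference between the classes was not tested.

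**Figure D2:**
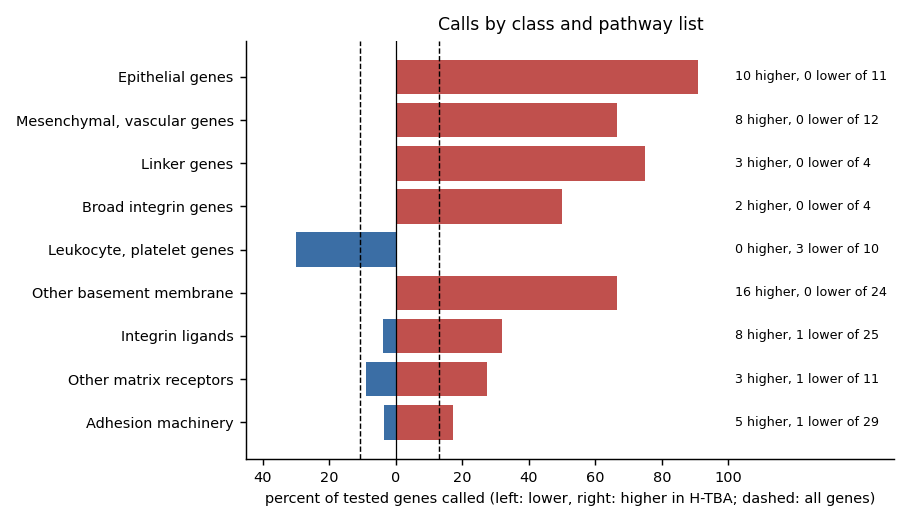
Percent of tested genes called lower (bars to the left) or higher (bars to the right) in H-TBA, for each class of integrin and laminin genes and each pathway list; dashed lines are the percent over all genes, 10.7 lower and 13.1 higher. The bars of the epithelial (10 of 11 higher), mesenchymal and vascular (8 of 12), linker (3 of 4) and broad integrin (2 of 4) classes point right alone. So does that of other basement membrane genes (16 of 24 higher). The bar of the leukocyte and platelet class (3 of 10 lower) points left alone.

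Lama3 and Lamb3 encode chains of a laminin of epithelia that anchor through hemidesmosomes. Lama3 was at 3.74, 5.18, 3.74 and 4.37 CPM in H-TBA 1 to 4 and 0.777, 1.17 and 1.90 CPM in L-TBA 1 to 3, without overlap and with H-TBA 1 level with H-TBA 3 (log2 fold change 1.74 ± 0.29 SE, adjusted p = 0.00180). Lamb3 was at 10.5, 14.7, 17.97 and 18.7 CPM in H-TBA 1 to 4 and 7.95, 7.81 and 6.31 CPM in L-TBA 1 to 3. The rise of Lamb3 was smaller (log2 fold change 1.07 ± 0.20 SE, adjusted p = 0.00314), and the groups did not overlap.

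Lama5, the alpha chain of the laminins under mature epithelium and endothelium, was at 37.2, 58.3, 91.3 and 80.3 CPM in H-TBA 1 to 4 and 21.2, 18.7 and 13.8 CPM in L-TBA 1 to 3. The L-TBA libraries lay together and the H-TBA libraries spread from H-TBA 1 upwards, with no overlap (log2 fold change 1.90 ± 0.27 SE, adjusted p = 7.97e-04). Lama1, an alpha chain known mainly from the embryo and a few adult epithelia, was the epithelial gene that was not called. Its values overlapped, at 1.31 to 2.59 CPM in H-TBA and 1.71 to 3.21 CPM in L-TBA (log2 fold change -0.46 ± 0.31 SE, adjusted p = 0.312).

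Integrin alpha6 beta4, the laminin receptor of hemidesmosomes, is encoded by Itga6 and Itgb4. Itgb4 was at 7.10, 11.3, 15.9 and 16.4 CPM in H-TBA 1 to 4 and 3.89, 2.51 and 2.90 CPM in L-TBA 1 to 3, with every H-TBA library higher (log2 fold change 2.03 ± 0.30 SE, adjusted p = 9.03e-04). Itga6, which also pairs with the beta1 subunit, was at 11.7, 14.2, 17.9 and 16.4 CPM in H-TBA 1 to 4 and 9.59, 8.97 and 5.51 CPM in L-TBA 1 to 3. The groups were apart by a smaller step (log2 fold change 0.90 ± 0.20 SE, adjusted p = 0.00796). The call of Itga6 was lost with the replicate numbers of the labels as a block (adjusted p = 0.0726). Per kilobase of exon, the Itgb4 level as a percent of the Itga6 level was 78.2%, 103%, 114% and 129% in H-TBA 1 to 4 and 52.2%, 36.0% and 67.8% in L-TBA 1 to 3. H-TBA 1 had the lowest of the H-TBA values.

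Itgb6 and Itgb8 encode beta subunits that pair with the alpha v subunit (Itgav) and release TGF-beta from its latent complex. Itgb6 was at 8.41, 9.87, 17.5 and 17.3 CPM in H-TBA 1 to 4 and 3.89, 3.23 and 1.40 CPM in L-TBA 1 to 3. The libraries did not overlap, although L-TBA 1 and 2 were well above L-TBA 3 (log2 fold change 2.21 ± 0.35 SE, adjusted p = 0.00129). Itgb8 was at 14.9, 15.6, 18.8 and 19.3 CPM in H-TBA 1 to 4 and 4.32, 4.04 and 5.91 CPM in L-TBA 1 to 3, and here H-TBA 1 stood close to the other H-TBA libraries (log2 fold change 1.86 ± 0.17 SE, adjusted p = 9.55e-05). Itgav, the partner of both, was at 50.7, 61.0, 70.9 and 60.8 CPM in H-TBA 1 to 4 and 47.9, 45.0 and 41.8 CPM in L-TBA 1 to 3, with no overlap (log2 fold change 0.44 ± 0.11 SE, adjusted p = 0.0141). Its call was lost with the length offset (adjusted p = 0.0539) and without L-TBA 3 (adjusted p = 0.0626). Per kilobase, Itgb6 as a percent of Itgav was 25.04%, 24.5%, 37.3% and 43.1% in H-TBA 1 to 4 and 12.3%, 10.8% and 5.07% in L-TBA 1 to 3. The corresponding values for Itgb8 were 28.6%, 24.9%, 25.7% and 30.8% in H-TBA 1 to 4 and 8.75%, 8.71% and 13.7% in L-TBA 1 to 3. Both ratios were higher in each H-TBA library than in any L-TBA library.

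Itga3 and Itga2 encode alpha subunits that pair with beta1, the first a receptor for epithelial laminins, the second for collagen. Itga3 was at 23.6, 40.6, 56.7 and 56.2 CPM in H-TBA 1 to 4 and 14.9, 17.1 and 13.2 CPM in L-TBA 1 to 3. H-TBA 1 lay between the L-TBA libraries and the other H-TBA libraries, without overlap (log2 fold change 1.56 ± 0.26 SE, adjusted p = 0.00180). Itga2 was scarce, at 0.934, 1.17, 2.76 and 1.78 CPM in H-TBA 1 to 4 and 0.691, 0.628 and 0.601 CPM in L-TBA 1 to 3. Its rise (log2 fold change 1.38 ± 0.43 SE, adjusted p = 0.0379) rested on few counts, and it was not called when any of H-TBA 3, H-TBA 4, L-TBA 1, L-TBA 2 or L-TBA 3 was left out (adjusted p = 0.0913, 0.0802, 0.0921, 0.102 and 0.102).

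**Figure D3:**
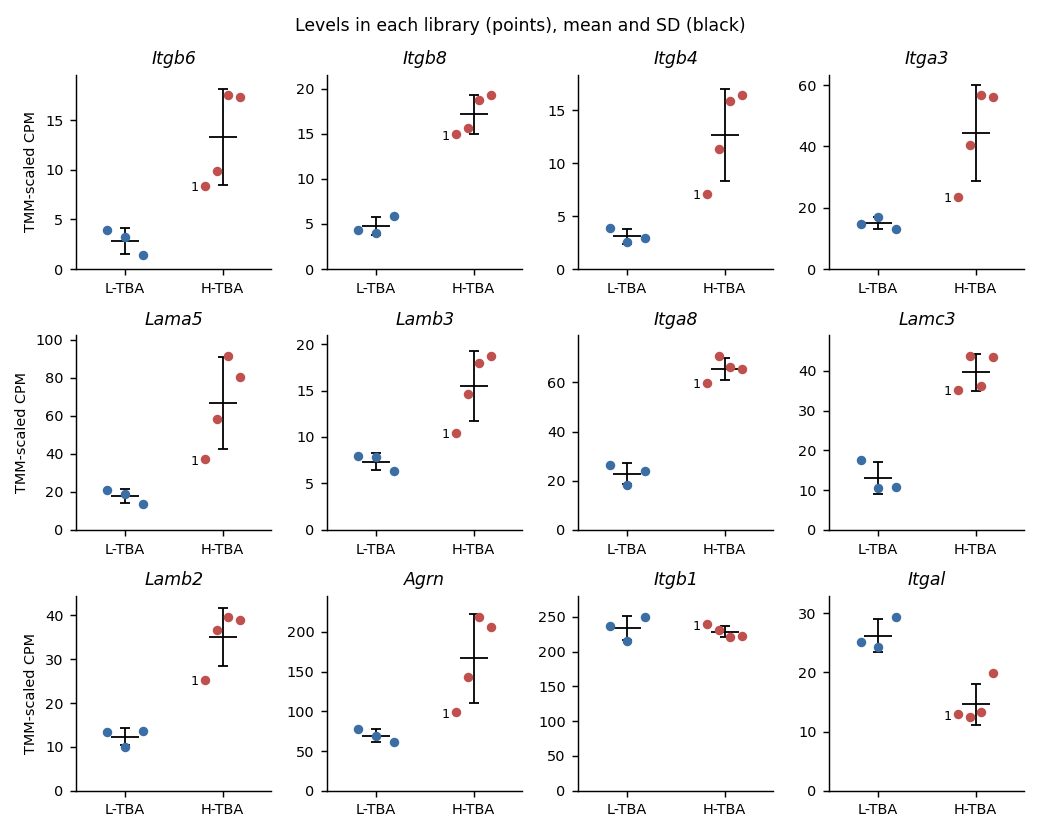
TMM-scaled CPM of 12 genes of the set in each library, 3 of L-TBA and 4 of H-TBA; each point is a library, black lines are the group mean and SD, and the digit 1 marks H-TBA 1. Lamb3, Itgb8 and Itga8 separate the groups, Itgb1 does not, and Itgal is lower in every H-TBA library.

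Promoter sequences are shown to compare the epithelial genes that rose by sequence. RefSeq entries (build GRCm38.p6) were found for 26 of the 41 genes, and the 250 bases before the most upstream start are considered. The 4 shown belong to the epithelial genes with the largest rises among those with an entry. Each is written 5′ to 3′ on the strand of its gene: Itgb6 (chr2:60722604-60722853, minus strand), Lama5 (chr2:180225860-180226109, minus strand), Itgb8 (chr12:119238277-119238526, minus strand) and Itga3 (chr11:95076715-95076964, minus strand). Capitals mark the GC box, the letters GGGCGG or their reverse complement CCGCCC, which Sp-family factors are known to bind. The Itgb8 start matched no transcript start of GENCODE M21.
Itgb6: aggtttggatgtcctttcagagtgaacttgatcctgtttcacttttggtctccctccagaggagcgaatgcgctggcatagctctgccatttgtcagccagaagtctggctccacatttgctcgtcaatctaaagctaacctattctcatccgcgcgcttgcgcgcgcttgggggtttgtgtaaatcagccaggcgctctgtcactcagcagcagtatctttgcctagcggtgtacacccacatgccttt
Lama5: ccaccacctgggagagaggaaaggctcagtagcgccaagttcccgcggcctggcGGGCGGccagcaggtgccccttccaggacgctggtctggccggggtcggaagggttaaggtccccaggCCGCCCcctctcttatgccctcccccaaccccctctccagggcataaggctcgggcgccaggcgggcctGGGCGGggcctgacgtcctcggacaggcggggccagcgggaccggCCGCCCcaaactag
Itgb8: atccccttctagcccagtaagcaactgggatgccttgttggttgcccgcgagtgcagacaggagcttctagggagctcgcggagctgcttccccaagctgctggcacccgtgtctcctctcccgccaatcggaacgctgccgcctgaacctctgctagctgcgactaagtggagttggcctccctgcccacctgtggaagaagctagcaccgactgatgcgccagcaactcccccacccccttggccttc
Itga3: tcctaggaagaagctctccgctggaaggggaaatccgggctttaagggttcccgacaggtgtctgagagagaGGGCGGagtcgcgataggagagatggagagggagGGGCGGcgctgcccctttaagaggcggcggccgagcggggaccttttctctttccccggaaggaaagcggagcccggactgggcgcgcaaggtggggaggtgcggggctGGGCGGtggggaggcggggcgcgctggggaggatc

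The 4 promoters did not share the GC box: Lama5 held it 4 times, Itga3 3 times, and Itgb6 and Itgb8 at 0 places. Their GC content was 72.4% for Lama5, 67.6% for Itga3, 62.4% for Itgb8 and 52.0% for Itgb6. Over the set, 11 of 26 promoters held a GC box, and 6 of the 16 that belong to genes that rose, against 32.7% of 32851 promoters of the same length. The highest numbers of boxes were in Agrn (12) and Hspg2 (5). Other motifs were searched on both strands as well. The AP-1 letters TGANTCA, which are their own reverse complement, were in 1 of 26 promoters (Itgax), against 6.75% of all promoters. The TEAD letters GGAATG were in 3 (Itgb1, Nid1 and Itga10), against 12.6%, and the SOX letters ACAATG in 1 (Itga8), against 10.7%. The ETS letters CCGGAAG were in 1 (Itga3), against 6.91%. The PU.1 letters GAGGAAG, which share their last 5 letters with the ETS motif, were in 7 of 26, against 10.6%. The 7 were Itgav, Lamb3, Itga2b, Itgam, Nid1, Itga11 and Lama2. They included 2 of the 5 leukocyte and platelet genes with an entry and 4 of the 16 genes that rose. A match is a run of letters and not a measured binding site.

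Of the mesenchymal and vascular genes, Itga8 and the laminin chains Lamc3, Lamb2 and Lamb1 had rises that passed the test under all 16 alternatives run. Itga8, an alpha subunit of stellate cells and smooth muscle that pairs with beta1, was at 59.97, 70.7, 66.2 and 65.4 CPM in H-TBA 1 to 4 and 26.5, 18.3 and 23.8 CPM in L-TBA 1 to 3. The H-TBA libraries lay close together, all more than 2-fold above each L-TBA library, and the adjusted p was the smallest of the 41 genes (log2 fold change 1.52 ± 0.12 SE, adjusted p = 6.47e-05). Lamc3 was at 35.2, 43.7, 36.1 and 43.5 CPM in H-TBA 1 to 4 and 17.6, 10.5 and 10.8 CPM in L-TBA 1 to 3. Both groups were tight apart from a higher L-TBA 1 (log2 fold change 1.60 ± 0.17 SE, adjusted p = 2.09e-04). Lamb2, a beta chain of vascular and muscle basement membranes, was at 25.3, 36.6, 39.6 and 38.9 CPM in H-TBA 1 to 4 and 13.3, 10.1 and 13.6 CPM in L-TBA 1 to 3, with no overlap (log2 fold change 1.51 ± 0.17 SE, adjusted p = 2.56e-04).

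The other laminin chains of this class had less even values. Lama4, the alpha chain of blood vessel laminin, was at 10.5, 18.4, 22.4 and 21.9 CPM in H-TBA 1 to 4 and 10.1, 5.83 and 7.21 CPM in L-TBA 1 to 3. H-TBA 1 and L-TBA 1 nearly met (log2 fold change 1.24 ± 0.26 SE, adjusted p = 0.00582). The call of Lama4 was lost with the replicate numbers of the labels as a block (adjusted p = 0.0572). Lamb1, the widely made beta chain, was at 22.5, 30.3, 31.5 and 27.3 CPM in H-TBA 1 to 4 and 16.5, 10.4 and 18.03 CPM in L-TBA 1 to 3, without overlap (log2 fold change 0.90 ± 0.18 SE, adjusted p = 0.00399). Lama2, known from muscle and nerve and made by mesenchymal cells, was at 8.87, 12.4, 14.3 and 9.39 CPM in H-TBA 1 to 4 and 8.90, 2.96 and 5.61 CPM in L-TBA 1 to 3. L-TBA 1 was as high as the lowest H-TBA library, so the groups overlapped (log2 fold change 0.94 ± 0.30 SE, adjusted p = 0.0417). Its call was lost with a robust fit (adjusted p = 0.0651), with the length offset (adjusted p = 0.0554) and without any of H-TBA 2, H-TBA 3, H-TBA 4, L-TBA 2 or L-TBA 3 (adjusted p = 0.0956, 0.103, 0.0599, 0.116 and 0.103). The log2 fold change was 0.62 without L-TBA 2 and 1.40 without L-TBA 1.

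Lamc1, the gamma chain of most laminins, was at 32.8, 39.5, 44.6 and 45.3 CPM in H-TBA 1 to 4 and 39.6, 29.3 and 30.8 CPM in L-TBA 1 to 3. The groups overlapped and it was not called (log2 fold change 0.29 ± 0.13 SE, adjusted p = 0.145), although it passed without H-TBA 1 (adjusted p = 0.0307).

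Among the beta chains, Lamb2 held 43.5% ± 1.08 (SD, n = 3) in L-TBA and 52.8% ± 0.687 (SD, n = 4) in H-TBA, with no overlap. Lamb1 held 32.1% and 26.0%, and Lamb3 held 24.4% and 21.2%, in the same order. Among the alpha chains, Lama5 held the largest share, 53.6% ± 8.99 (SD, n = 3) in L-TBA and 67.0% ± 4.02 (SD, n = 4) in H-TBA, and here the groups overlapped. Lama4 held 21.5% ± 2.49 (SD, n = 3) in L-TBA and 17.5% ± 1.14 (SD, n = 4) in H-TBA, also with overlap. Lama1 held 8.90% ± 3.07 (SD, n = 3) in L-TBA and 2.20% ± 0.512 (SD, n = 4) in H-TBA, without overlap, while its own level was not called. Summed per kilobase, the alpha chains were at 2.94 in L-TBA and 8.65 in H-TBA and the beta chains at 4.65 and 10.9 CPM per kilobase. A share is a ratio of transcripts within a library and says nothing of the trimers made.

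**Figure D4:**
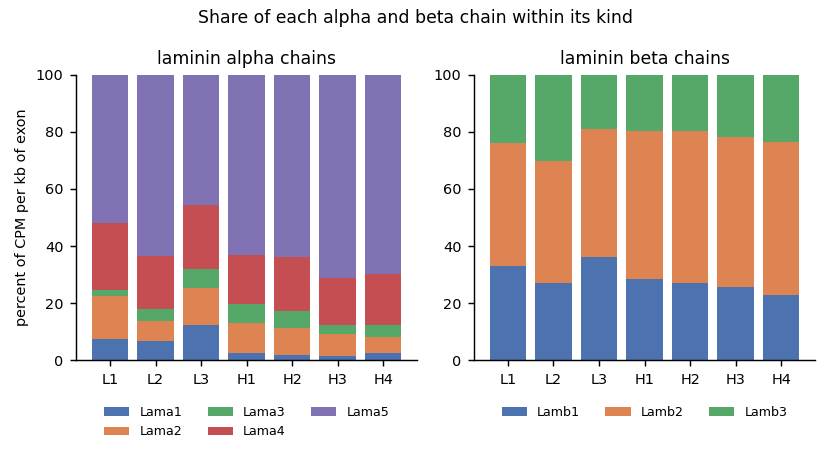
Share of each laminin chain in the per-kilobase sum of the alpha or beta chains, in percent, as stacked bars for each of the 3 L-TBA (L) and 4 H-TBA (H) libraries. Lamb2 holds 43.5% of the beta chains in L-TBA and 52.8% in H-TBA on average, and Lama5 is the most abundant alpha chain in both groups.

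The remaining alpha subunits of the mesenchymal and vascular class were mixed. Itga11 and Itga10, collagen receptors of fibroblasts and cartilage, were scarce. Itga11 was at 1.31, 1.08, 0.976 and 1.38 CPM in H-TBA 1 to 4 and 0.346, 0.628 and 0.401 CPM in L-TBA 1 to 3. The groups did not overlap (log2 fold change 1.35 ± 0.37 SE, adjusted p = 0.0207), but the call was lost with DESeq2 (adjusted p = 0.0612) and without H-TBA 4, L-TBA 1 or L-TBA 3 (adjusted p = 0.0523, 0.0933 and 0.0774). Itga10 was at 2.15, 1.66, 2.11 and 1.46 CPM in H-TBA 1 to 4 and 0.950, 0.808 and 1.10 CPM in L-TBA 1 to 3, also without overlap (log2 fold change 0.95 ± 0.29 SE, adjusted p = 0.0353). It was not called with DESeq2 (adjusted p = 0.0880), with no filter (adjusted p = 0.0548), with the length offset (adjusted p = 0.0593), or without any of H-TBA 1, H-TBA 2, H-TBA 3, L-TBA 1, L-TBA 2 or L-TBA 3 (adjusted p = 0.0525, 0.0517, 0.0805, 0.102, 0.126 and 0.0669).

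Itga9, which binds tenascin and osteopontin, was at 28.3, 39.3, 37.7 and 43.8 CPM in H-TBA 1 to 4 and 31.7, 27.6 and 29.6 CPM in L-TBA 1 to 3. H-TBA 1 lay inside the L-TBA range (log2 fold change 0.33 ± 0.13 SE, adjusted p = 0.0922), and the gene was called without H-TBA 1 (adjusted p = 0.00444), by limma-voom (adjusted p = 0.0321) and with library totals (adjusted p = 0.0392). Itga1, a collagen receptor of sinusoidal and mesenchymal cells, was at 13.2, 17.6, 17.3 and 16.7 CPM in H-TBA 1 to 4 and 18.5, 14.1 and 15.3 CPM in L-TBA 1 to 3. The groups overlapped (log2 fold change 0.02 ± 0.13 SE, adjusted p = 0.931). Itga7, a laminin receptor of muscle, lay at 8.09 to 10.9 CPM in H-TBA and 8.11 to 13.4 CPM in L-TBA and was not called (log2 fold change -0.12 ± 0.20 SE, adjusted p = 0.705).

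Of the linking proteins, Agrn, Hspg2 and Nid2 rose. Agrn, a heparan sulfate proteoglycan that binds laminin and that bile ducts and vessels carry, was at 98.7, 143, 219 and 206 CPM in H-TBA 1 to 4 and 78.1, 68.4 and 61.3 CPM in L-TBA 1 to 3. The H-TBA libraries were all higher, with H-TBA 3 and 4 more than 2-fold above H-TBA 1 (log2 fold change 1.27 ± 0.23 SE, adjusted p = 0.00290). Hspg2, perlecan, was at 49.5, 76.5, 112 and 104 CPM in H-TBA 1 to 4 and 39.6, 30.5 and 35.6 CPM in L-TBA 1 to 3. Its libraries took the same order within H-TBA (log2 fold change 1.28 ± 0.23 SE, adjusted p = 0.00282). Nid2 was at 6.73, 7.82, 10.2 and 12.1 CPM in H-TBA 1 to 4 and 6.31, 5.205 and 4.81 CPM in L-TBA 1 to 3, without overlap (log2 fold change 0.76 ± 0.21 SE, adjusted p = 0.0251). The call of Nid2 was lost without H-TBA 3, H-TBA 4, L-TBA 2 or L-TBA 3 (adjusted p = 0.0612, 0.0722, 0.0783 and 0.0865). Nid2 shares 437 bp of exon, 8.45% of its length, with Rtraf on the opposite strand in GENCODE M21, and the strand setting of the counting is not given in the sources used here. Nid1, the more abundant nidogen, was at 50.5, 60.9, 73.1 and 74.0 CPM in H-TBA 1 to 4 and 69.6, 76.5 and 53.3 CPM in L-TBA 1 to 3. It overlapped throughout (log2 fold change -0.04 ± 0.15 SE, adjusted p = 0.879), so the pair of nidogens stood on different sides of the threshold; the difference between them was not tested.

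Integrin subunits that most cells make had small differences. Itgb1, the partner of most alpha subunits that bind matrix, was at 239, 231, 221 and 223 CPM in H-TBA 1 to 4 and 237, 215 and 249.7 CPM in L-TBA 1 to 3. The groups overlapped (log2 fold change -0.03 ± 0.09 SE, adjusted p = 0.823). Itgb5, which pairs with alpha v and binds vitronectin, was at 168, 196, 189 and 181 CPM in H-TBA 1 to 4 and 155, 143 and 132 CPM in L-TBA 1 to 3. Every H-TBA library was higher by a small step (log2 fold change 0.36 ± 0.09 SE, adjusted p = 0.0159), and the call was lost with the length offset (adjusted p = 0.0708) and without L-TBA 2 or L-TBA 3 (adjusted p = 0.0569 and 0.0814). Itga5, the fibronectin receptor subunit, was at 30.3, 30.1, 36.8 and 35.7 CPM in H-TBA 1 to 4 and 27.9, 32.8 and 28.9 CPM in L-TBA 1 to 3. It was not called (log2 fold change 0.15 ± 0.10 SE, adjusted p = 0.315).

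Per kilobase of exon, Itgb1 and Itgb5 were the most abundant genes of the set in both groups. Itgb1 was at 57.3 and 56.1 CPM per kilobase in L-TBA and H-TBA, and Itgb5 at 40.4 and 51.8. Agrn came next in H-TBA, at 7.46 and 17.9, followed by Nid1 at 9.57 and 9.31, Itga8 at 3.11 and 8.90 and Itga3 at 2.64 and 7.75. In L-TBA, Itgb2 and Nid1 stood above Agrn, with Itgb2 at 9.71 and 6.95. Of the per-kilobase sum of alpha subunits, Itga8 made up 8.89% ± 1.69 (SD, n = 3) in L-TBA and 19.0% ± 2.29 (SD, n = 4) in H-TBA and Itga3 7.52% ± 0.774 (SD, n = 3) in L-TBA and 15.99% ± 3.89 (SD, n = 4) in H-TBA. Both were without overlap. Itgb1 made up 51.6% ± 2.12 (SD, n = 3) in L-TBA and 45.9% ± 2.72 (SD, n = 4) in H-TBA of the beta subunits.

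Of the leukocyte and platelet integrins, Itgal, Itgb2 and Itgb3 fell and the other 7 were not called. Itgal and Itgb2 form LFA-1, the receptor by which lymphocytes and other leukocytes bind ICAM-1. Itgal was at 12.9, 12.5, 13.3 and 19.8 CPM in H-TBA 1 to 4 and 25.1, 24.2 and 29.3 CPM in L-TBA 1 to 3. Every H-TBA library was below every L-TBA library, and H-TBA 4 was nearest to them (log2 fold change -0.83 ± 0.16 SE, adjusted p = 0.00329). Itgb2, the beta subunit of LFA-1 and of the myeloid integrins, was at 19.1, 19.2, 20.7 and 25.9 CPM in H-TBA 1 to 4 and 28.2, 28.1 and 32.7 CPM in L-TBA 1 to 3, also without overlap (log2 fold change -0.48 ± 0.12 SE, adjusted p = 0.0142). The fall of Itgb2 was not called with library totals (adjusted p = 0.112) or without L-TBA 3 (adjusted p = 0.0647). Per kilobase, Itgal as a percent of Itgb2 was 31.3%, 30.3%, 30.0% and 35.6% in H-TBA 1 to 4 and 41.5%, 40.1% and 41.8% in L-TBA 1 to 3, lower in each H-TBA library.

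Itgb3, the beta subunit of platelets, of osteoclasts and of activated endothelium, was scarce at 2.06, 1.27, 1.30 and 2.10 CPM in H-TBA 1 to 4 and 2.16, 3.05 and 4.61 CPM in L-TBA 1 to 3. The groups were apart by a narrow gap between H-TBA 4 and L-TBA 1 (log2 fold change -0.94 ± 0.31 SE, adjusted p = 0.0482). Its call was lost by limma-voom (adjusted p = 0.0743), with library totals (adjusted p = 0.0830) and without any of H-TBA 2, H-TBA 3, H-TBA 4, L-TBA 2 or L-TBA 3 (adjusted p = 0.113, 0.114, 0.0603, 0.0918 and 0.218). Without L-TBA 3 its log2 fold change was -0.63.

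The myeloid alpha subunits that pair with Itgb2 were not called. Itgax, the subunit of dendritic cells and some macrophages known as CD11c, was at 14.8, 14.8, 16.9 and 20.8 CPM in H-TBA 1 to 4 and 19.9, 22.3 and 17.4 CPM in L-TBA 1 to 3. The groups overlapped (log2 fold change -0.24 ± 0.14 SE, adjusted p = 0.242). Itgam, the CD11b subunit of macrophages and neutrophils, lay at 5.28 to 8.09 CPM in H-TBA and 6.91 to 9.59 CPM in L-TBA (log2 fold change -0.36 ± 0.20 SE, adjusted p = 0.212). Itga4, which with beta1 or beta7 binds VCAM-1 and fibronectin, was at 10.9, 8.50, 8.29 and 11.4 CPM in H-TBA 1 to 4 and 10.8, 11.7 and 14.9 CPM in L-TBA 1 to 3, with overlap (log2 fold change -0.34 ± 0.16 SE, adjusted p = 0.155). It passed with the length offset (adjusted p = 0.0424). Itgad, Itgae, Itgb7 and Itga2b, subunits of tissue macrophages, of lymphocytes in epithelium, of gut-homing lymphocytes and of platelets, lay between 0.801 and 6.88 CPM over all libraries and had log2 fold changes of -0.09, 0.59, 0.20 and -0.13, in that order, with none called.

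**Figure D5:**
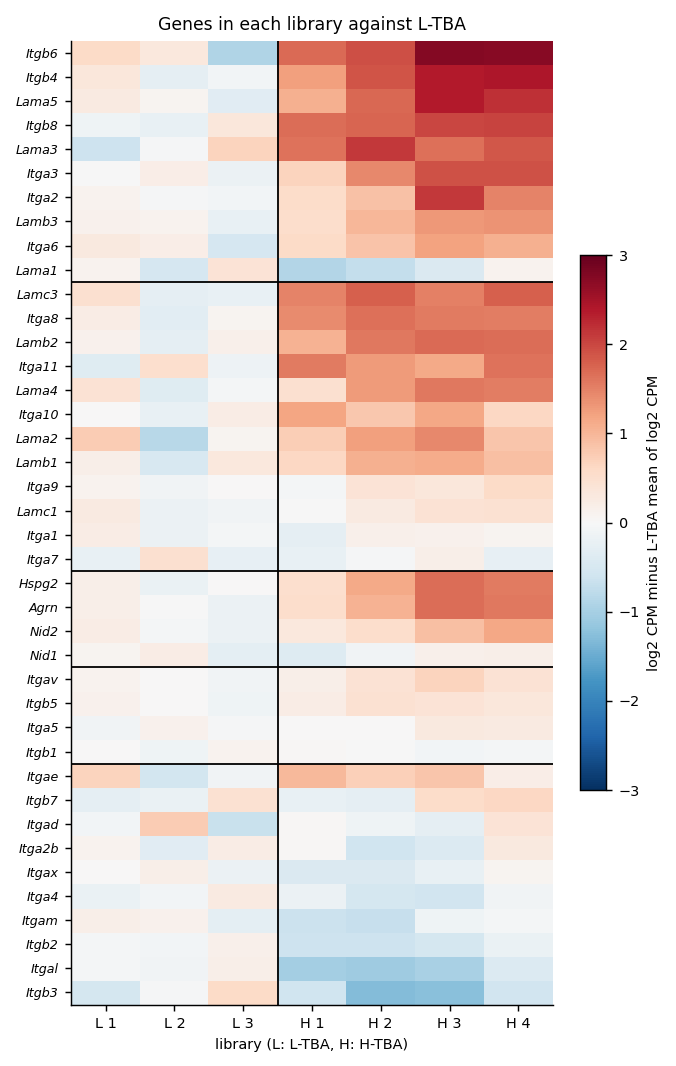
Log2 CPM of 40 of the 41 genes in each of the 7 libraries, as the difference from the mean of the 3 L-TBA libraries; genes are ordered by class and log2 fold change, red is higher and blue is lower. The H-TBA libraries share the direction in the epithelial genes other than Lama1, and H-TBA 1 is paler than H-TBA 2 to 4 in most of them.

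Markers of some of the cells that carry these genes were called as well, but none of T and NK cells, B cells or platelets. The counts below stand against 13.1% higher and 10.7% lower over all genes tested. In bulk tissue, a change in the number of cells of a type and a change in RNA per cell cannot be told apart. All 15 of 15 bile duct markers rose (median 2.27), and their sum was 262, 463, 574 and 476 CPM in H-TBA 1 to 4 and 143, 111 and 104 CPM in L-TBA 1 to 3. Prom1 (2.42 ± 0.21), Ehf (2.29 ± 0.22), Krt19 (3.03 ± 0.32) and Muc1 (2.33 ± 0.27) had the smallest adjusted p of that list (log2 fold changes ± SE). Within H-TBA the sum was highest in H-TBA 3 and lowest in H-TBA 1, as was the sum of the epithelial integrin and laminin genes. Among the epithelial genes that rose, Itgb4, Itgb8 and Lamb3 were highest in H-TBA 4 and Lama3 in H-TBA 2. The part of bile duct cell number in the epithelial integrin and laminin genes was not tested.

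Of 15 stellate cell and fibroblast markers, 6 rose and 1 fell (median 0.37), with sums of 1108 to 1255 CPM in H-TBA and 720.2 to 1288 CPM in L-TBA. Pdgfra rose by 1.40 and Lum by 1.06 on the log2 scale, and Pdgfrb by 0.61. Rgs5, a pericyte gene, rose by 0.70 with all libraries and missed the threshold without L-TBA 2 (adjusted p = 0.0567). Reln, a stellate cell gene, fell (log2 fold change -0.95 ± 0.17 SE, adjusted p = 0.00292). The falls of the list numbered 2 without H-TBA 1, and also by limma-voom, with no filter or with the length offset. Of 10 vascular endothelial markers 2 rose, Cd34 (1.82) and Emcn (1.45), and Plvap fell (-0.70; adjusted p = 0.0567 with library totals). Without H-TBA 1, 5 vascular endothelial markers rose, and 4 rose by limma-voom or with library totals. The sums of this list were 179.5 to 248 CPM in H-TBA and 166 to 226 CPM in L-TBA. Of 10 sinusoidal endothelial markers 0 rose and 8 fell (median -0.65), with the smallest adjusted p for Stab2, Lyve1, Clec4g and Oit3, at sums of 207 to 244 CPM in H-TBA and 295 to 333 CPM in L-TBA. The count of falls was 5 of 10 with library totals, with the replicate block and without H-TBA 3, L-TBA 1 or L-TBA 3. The part of these cells in the mesenchymal and vascular genes was not tested.

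Macrophage markers summed to 604 to 706 CPM in H-TBA and 836 to 1087 CPM in L-TBA, and of 13 genes 0 rose and 3 fell: Cd5l (-1.36), Clec4f (-1.54) and Adgre1 (-0.60). Without L-TBA 2 or with the length offset, 5 of 13 fell. Adgre1 was not called with library totals (adjusted p = 0.0691) or without L-TBA 3 (adjusted p = 0.0731). Neutrophil markers summed to 14.8 to 16.1 CPM in H-TBA and 21.9 to 27.2 CPM in L-TBA, with 2 of 5 tested genes lower, Cxcr2 (-0.73) and S100a8 (-1.11). S100a8 was not called with DESeq2 (adjusted p = 0.0542) or without H-TBA 3, H-TBA 4, L-TBA 2 or L-TBA 3 (adjusted p = 0.0618, 0.0726, 0.0551 and 0.121). Of 7 tested T and NK cell markers 0 rose and 0 fell, and 4 more of the list were too scarce to be tested. The sums of all 11 were 12.1 to 21.7 CPM in H-TBA and 15.2 to 19.0 CPM in L-TBA. With no filter on low counts, 1 T and NK cell marker fell. B cell markers had 0 of 5 called in either direction, at 6.94 to 23.6 CPM in H-TBA and 13.3 to 99.5 CPM in L-TBA, with L-TBA 3 far above the rest, and 2 fell without L-TBA 1. Of 7 dendritic cell markers 2 rose, Zbtb46 (0.46) and Cd209a (1.72). Zbtb46 was not called with DESeq2 (adjusted p = 0.0659), with no filter (adjusted p = 0.0560), with the length offset (adjusted p = 0.121) or without H-TBA 2, H-TBA 3, H-TBA 4, L-TBA 1, L-TBA 2 or L-TBA 3 (adjusted p = 0.107, 0.111, 0.0870, 0.0748, 0.158 and 0.105), nor Cd209a, which was too scarce to be tested without H-TBA 2, H-TBA 3 or H-TBA 4, without L-TBA 1 or L-TBA 2 (adjusted p = 0.152 and 0.160). Of 7 platelet markers only 1 had enough counts to be tested and it was not called. The part of these cells in the fall of Itgal, Itgb2 and Itgb3 was not tested.

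Other genes of the same layers and pathway were read from lists. Of 24 further basement membrane genes tested, 16 rose and 0 fell (median 0.99). The smallest adjusted p were those of Fbln1 (2.5), Smoc2 (1.0), Col4a6 (2.46) and Col4a5 (1.90), all on the log2 scale. The remaining type IV collagen chains are given after their values were seen. Col4a4 rose by 2.42 and Col4a3 by 2.35. The widely made chains rose less, Col4a2 by 0.83 and Col4a1 by 0.56. Col4a2 was not called with a robust fit (adjusted p = 0.0580) or without L-TBA 2 or L-TBA 3 (adjusted p = 0.0649 and 0.0614). Col4a1 was not called with the length offset (adjusted p = 0.0567) or without H-TBA 2, H-TBA 3, H-TBA 4, L-TBA 2 or L-TBA 3 (adjusted p = 0.0645, 0.0657, 0.0765, 0.108 and 0.108).

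Receptors for matrix other than integrins had 3 rises and 1 fall in 11 genes (median 0.16). Bcam, a receptor for the laminin alpha5 chain, rose (log2 fold change 2.38 ± 0.24 SE, adjusted p = 1.49e-04), as did the collagen receptor Ddr1 (1.91) and syndecan Sdc1 (0.62). Sdc3 fell (-0.58). With library totals 6 of these receptors rose. Of 25 integrin ligands tested, 8 rose and 1 fell (median 0.29). Tgfb3, a TGF-beta isoform kept latent until integrins of the alpha v family release it, rose (log2 fold change 2.42 ± 0.30 SE, adjusted p = 4.31e-04), with Thbs2 (1.22), Cdh1 (1.31) and Mfge8 (1.43). Fn1, fibronectin, fell (log2 fold change -0.46 ± 0.11 SE, adjusted p = 0.0102), but not with library totals (adjusted p = 0.0550) or without L-TBA 2 (adjusted p = 0.0531). The falls among the ligands numbered 5 without L-TBA 3, 4 with DESeq2 or with no filter and 7 with the length offset. They numbered 2 without H-TBA 1 or with a robust fit, and 0 with library totals or the replicate block.

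Talins, kindlins and other proteins link integrins to actin inside the cell. Of 29 such genes 5 rose and 1 fell, against the 13.1% and 10.7% of all genes, and their median was 0.01. With library totals 8 rose, and with the length offset 6 fell. The replicate numbers of the labels as a block left 3 rises and 0 falls. The kindlins activate integrin beta subunits. Fermt1, the epithelial kindlin, rose (log2 fold change 2.13 ± 0.24 SE, adjusted p = 2.74e-04). Fermt2, the kindlin of mesenchymal and many other cells, fell (log2 fold change -0.41 ± 0.08 SE, adjusted p = 0.00444), and Fermt3, the kindlin of blood cells, named after its values were seen, was not called (log2 fold change -0.25 ± 0.14 SE, adjusted p = 0.224) other than with the length offset (adjusted p = 0.0422). Tns1 (0.68), Lims1 (0.50) and Nedd9 (0.68) rose too.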

How the data were processed

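The deposited values are whole-number read counts for each Ensembl gene, which the authors had not normalized. Per the submitters' processing notes, CASAVA, TopHat2 2.0.11, DESeq2 1.18.1 and build mm9 were used; what counted the reads, and with which strand setting, is not given in the sources. Symbols, exon lengths and overlaps came from GENCODE M21 (build GRCm38), matched by Ensembl identifier (32897 of 37620 had a symbol), so no coordinates are given for the counts. Genes were filtered with filterByExpr (minimum count 10, minimum total 15; 15249 kept), scaled by TMM and tested for a group effect in R 4.3.3 (edgeR 4.0.16, quasi-likelihood, no covariate), adjusting by Benjamini-Hochberg over all genes at 0.05. SE is the fold change over the root of F. The step was tested on simulated data.

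The genes, classes and lists were chosen with earlier results of these data known. Genes that passed, and those with a mean of at least 10 CPM, have values in every library. Of each list, up to 4 genes with the smallest adjusted p in the commoner direction are named, plus those in the other direction where at most 3. Alternatives were DESeq2 1.42.0, limma-voom (limma 3.58.1), other scalings, filters and fits, an exon length offset (lengths covered 96.3% of genes tested), a replicate block and leaving out each library. Within groups, libraries differed by more than sampling noise (smallest chi-square per degree of freedom 5.66). A gene of the set is counted but not reported here. Figures used matplotlib 3.10.9.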

Additional observations from a re-analysis of the deposited data

Results flagged for a closer look

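In the H-TBA group, Itgal stood at 19.8 CPM in H-TBA 4, whereas the other H-TBA libraries lay at 12.5 to 13.3 CPM. The gap to the next library was 0.887 of the range of the group. The flag was set at a gap that chance reaches in about 1 in 20 groups, and the rate for this gap was not computed. The L-TBA libraries were all higher, and Itgal was called lower under all 16 alternatives that were run.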

How the results depend on the processing

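Of the 26 integrin and laminin genes that passed, 15 kept their call under all 16 alternatives. Over 656 pairs of gene and alternative, 580 kept direction and side of the threshold, 53 no longer passed, 5 newly passed and 18 changed sign, the last in genes that were not called. With library totals, 3117 of all genes were higher and 832 lower, 1 of the 41 genes was lower, and 1 leukocyte gene was lower. With the length offset 2649 genes were lower and 0 of the integrin subunits of most cells were higher. Leaving out each library gave 1035 (without L-TBA 1) to 2123 lower genes; 1 to 3 lower genes of the 41; 5 to 9 higher mesenchymal and vascular genes; 1 to 3 lower leukocyte genes; and 0 to 2 higher subunits of most cells, the lowest of the last 4 without L-TBA 3. The replicate numbers of the labels did not pair the libraries (correlations of deviations -0.10, -0.06 and -0.06, no library closest to its own number). As a replicate block they gave 1166 higher and 754 lower genes, 14 of the 41 genes higher, 4 mesenchymal and vascular genes higher and 0 subunits of most cells higher. With this block the calls of Itgav, Itgb5, Itga2, Itga6, Itgb3, Nid2, Itga11, Lama4, Itga10 and Lama2 were lost. Of the genes named from lists, Ttr, Rgs5, Fermt2, Nedd9, Fn1, S100a8, Zbtb46, Cd209a, Col4a1 and Col4a2 were not called with it either. Signs changed for Itgb1 (library totals 0.12; leaving out libraries -0.092 to 0.013), Itgad (limma-voom 0.051, totals 0.060; -0.35 to 0.37), Itga2b (totals 0.023), Nid1 (limma-voom 0.0046, totals 0.12; -0.18 to 0.070), Itga1 (length offset -0.13; -0.065 to 0.14) and Itga7 (totals 0.038; -0.24 to 0.16). For 11 laminin and integrin shares, the difference between the groups moved by less than 1 SD with other lengths or none; the shares themselves depend on the lengths. Some of the genes that lost their call were scarce, such as Itga2, Itga10, Itga11 and Itgb3. Itgb5, with 13096 counts over all libraries, lost its call in 4 alternatives. Lama3, with 234 counts, kept its call in all 16. Unless the setting itself shows it, the cause of each change was not tested.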

Other observations

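H-TBA 1 took different places for different integrin and laminin genes. On a log2 CPM scale where 0% is the mean of L-TBA and 100% the mean of H-TBA 2 to 4, its position over the 23 genes that rose had a median of 55.8% and ran from 32.4% to 137%. The median over all 2003 genes that rose was 66.6%, and over the bile duct markers it was 51.7%. The 10 epithelial genes that rose had a median of 53.1% (36.8% to 87.6%) and the 8 mesenchymal and vascular genes one of 75.7% (32.4% to 137%); this difference was not tested. In 6 genes H-TBA 1 stood at 80% or more, namely Itgb8, Lama3, Lamc3, Itga8, Itga11 and Itga10. In 13 genes it stood below 60%. H-TBA 1 was the lowest H-TBA library in 21 of the 23 genes that rose, and in 1334 (66.6%) of all genes that rose.

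Several genes share exon bases with another gene model in GENCODE M21, and the strand setting of the counting is not given in the sources used here. Itga4 shares 1124 bp (8.04% of its exons) with Cerkl, which had 282 counts over all libraries. Itga8 shares 372 bp with E030013I19Rik (168 counts) and Itgav 634 bp with Gm13684 (17 counts). Rtraf, which overlaps Nid2, had 4902 counts. Itgam and Itga10 share 68.7% and 33.5% of their exons with models on the same strand, for which no counts were analysed here.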
